A study of Mus musculus with 8 samples.

Results

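Among the 1931 genes in the deposited table, 18 protein-coding genes belong to families that write, erase or read marks on histones and DNA or that move nucleosomes. They were chosen by gene symbol, from histone methyltransferases, demethylases, deacetylases, acetyltransferases, chromatin remodellers, bromodomain and PHD-finger proteins, DNA methylation enzymes and corepressor scaffolds. RNA-seq counted transcripts in the kidney of MRL-lpr mice. This strain is prone to lupus, and its Fas gene carries the lpr mutation in all animals of both groups. The 4 propionate libraries came from mice that drank water with propionate (PA) at 200 mM over 6 weeks, and the 4 control libraries from mice labelled control, all at an age of 12 weeks. What the control mice drank, the sex of the mice and any litter or batch are not stated in the sources used here. Nor do these say whether each library is a separate animal. If it is not, the p-values measure only the spread between these libraries. Chromatin modifiers are of interest here because short-chain fatty acids such as propionate are known to inhibit histone deacetylases, enzymes that take acetyl groups off histones and thereby favour closed chromatin. TET enzymes oxidise methylated cytosine in DNA, the first step of active demethylation, while methyltransferases and demethylases set lysine methylation on histones. RNA counts show the level of each transcript and say nothing of enzyme activity.

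The libraries held 24608712 to 26711127 assigned reads with propionate and 20005328 to 26002214 in controls, of which the listed genes took 13.4% to 15.1% and 13.5% to 14.4%. The authors listed only genes with an unadjusted p of at most 0.05 between these same libraries, so each of the 18 genes had already been selected for a difference. In the GENCODE M21 annotation 154 protein-coding genes have such symbols, and the 18 are 11.7% of them. Of all genes the authors adjusted over, the listed ones are 11.2% (1796 of 16064). The annotation also counts genes with few or no reads, so these shares are of unlike wholes. The other members of the families are not analysed here. Of 15 proximal tubule markers 9 were in the table, among them the phosphate carrier Slc34a1 at 71776 to 82409 scaled counts with propionate and 65774 to 77522 in controls. These 9 went both ways, 4 lower and 5 higher, and their summed scaled counts were 244246 to 277484 with propionate and 253341 to 291124 in controls. By the authors' deposited table Pck1 (log2 fold change by edgeR -0.82) and Slc13a3 (-0.34) fell and Slc6a19 (0.59) rose.

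Of the 18 genes, 10 were lower with propionate and 8 were higher. All 3 Tet genes of the mouse were in the table and all were lower, led by Tet2, which fell by 40.9% in the ratio of the group means. At 15457 to 16870 bases, the Tet genes fall in the longest of 4 bins of gene length. In that bin 78.3% of all listed genes were lower. Hdac5, the only classical deacetylase gene of 11 in the table, was higher by 18.6%, and Sirt6, the only sirtuin of 7, by 24.5%. By the authors' deposited table, Tet2 fell (adjusted p = 0.000712) and Hdac5 rose (adjusted p = 0.0471) past the threshold of 0.05. There 5.33% of all listed genes fell and 2.8% rose. The other 16 did not pass there, and their directions are given below as values. No acetyltransferase of 11 annotated, no corepressor scaffold of 4, no Dnmt gene of 5 and no Brd gene of 8 was in the table.

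The upstream sequences of the Tet genes and Hdac5 are shown because these are the family whose members were all listed and lower, and the deacetylase gene that rose. Each is the run of 250 bases before the annotated start in RefSeq (GRCm38.p6), read 5′ to 3′ on the strand of the gene. Capitals mark a GC box (GGGCGG or its reverse complement CCGCCC) or a CCAAT box (CCAAT or ATTGG), with both strands searched.
Tet2 (chr3:133544391-133544640, minus strand): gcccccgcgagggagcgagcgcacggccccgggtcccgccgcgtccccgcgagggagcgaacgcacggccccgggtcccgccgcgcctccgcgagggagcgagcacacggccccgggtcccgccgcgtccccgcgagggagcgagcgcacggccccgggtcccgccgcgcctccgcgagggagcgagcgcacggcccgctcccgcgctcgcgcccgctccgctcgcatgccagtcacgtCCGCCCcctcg
Tet1 (chr10:62887325-62887574, minus strand): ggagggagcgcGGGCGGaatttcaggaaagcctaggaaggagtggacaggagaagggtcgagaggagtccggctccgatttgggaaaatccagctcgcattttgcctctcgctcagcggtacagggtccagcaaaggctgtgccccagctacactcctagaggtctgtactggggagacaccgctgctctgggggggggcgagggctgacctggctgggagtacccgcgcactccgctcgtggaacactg
Tet3 (chr6:83441679-83441928, minus strand): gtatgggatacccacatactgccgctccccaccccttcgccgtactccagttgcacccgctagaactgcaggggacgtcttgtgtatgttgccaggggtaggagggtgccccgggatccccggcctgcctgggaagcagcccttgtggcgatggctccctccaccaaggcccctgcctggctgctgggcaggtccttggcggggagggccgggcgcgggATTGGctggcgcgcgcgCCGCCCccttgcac
Hdac5 (chr11:102230173-102230422, minus strand): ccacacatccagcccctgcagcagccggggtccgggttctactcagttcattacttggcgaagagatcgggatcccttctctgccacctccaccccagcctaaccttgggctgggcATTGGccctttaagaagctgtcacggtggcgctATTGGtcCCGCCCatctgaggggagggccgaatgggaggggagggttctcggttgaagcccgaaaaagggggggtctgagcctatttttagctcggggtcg

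The Tet2 sequence held 51 CpG dinucleotides, against 15 for Tet1, 17 for Tet3, 12 for Hdac5 and a median of 6 over all 32851 promoters of the same length. A search made after the sequence was seen found 3 runs of 12 letters tied for the most copies, and all lie in the 14-letter run ccgcgagggagcga, with 5 copies. Of the 32851 sequences, 1 holds this run, that of Tet2. All 4 sequences hold a GC box, as do 32.7% of all promoters. Tet3 and Hdac5 hold a CCAAT box, as do 33.8% of all promoters, and Tet1 and Tet2 hold none in this window. No TATA box (TATAAA or TTTATA, found in 12.4% of all promoters) was in these 4. Sequences were matched for 14 of the 18 genes, at 20 starts, with 0 to 56 CpG dinucleotides (median 16), a GC box at 15 starts, a CCAAT box at 10 and a TATA box at 2. These are letter matches, not sites shown to be bound.

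Tet2, which oxidises methylated cytosine and is well known for its part in blood cell development, had 432, 569, 391 and 358 scaled counts in the propionate libraries, against 612, 809, 802 and 739 in the controls. Scaled counts are read counts divided by the authors' size factor of the library. Every propionate library lay below every control library. The means were 438 ± 93.0 with propionate and 740.4 ± 91.2 in controls (SD, n = 4 each), a log2 fold change of -0.76 ± 0.14 (SE) by edgeR. Adjusted over all 16064 genes the authors tested, edgeR's quasi-likelihood test gave an adjusted p of 0.182 for Tet2, and DESeq2 gave 0.000827. With DESeq2 it passed in each of 8 fits that left out 1 library (log2 fold change -0.91 to -0.67, adjusted p 1.59e-08 to 0.0241). As the table gives it, Tet2 lies on chromosome 3 from 133169440 to 133250900, minus strand, in a build that the table does not name and that differs from GRCm38.

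Tet1, the family member best known from embryonic stem cells and germ cells, was scarce, with 52.1, 102, 47.0 and 65.4 scaled counts with propionate and 73.7, 115, 105 and 104 in controls. Propionate replicate 2 and control replicate 1 made the groups overlap. Its log2 fold change was -0.58 ± 0.26 (SE), and the authors' deposited table gives it an adjusted p of 0.389. Tet3, which acts on the paternal genome after fertilisation and is found in many adult tissues, had 579.5, 501, 458 and 392.5 scaled counts with propionate and 475, 579, 652 and 664.5 in controls. The groups overlapped, with propionate replicate 1 above control replicate 1. The log2 fold change of Tet3 was -0.29 ± 0.13 (SE), and the authors' deposited table gives it an adjusted p of 0.426. Tet1 and Tet3 are given library by library as relatives of Tet2, and Sirt6 below as the other deacetylase listed. This choice was made after their values were seen.

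Per length, Tet2 and Tet3 were at similar levels and Tet1 far below. In FPKM, which scales reads to gene length and library depth, Tet2 was at 1.06 ± 0.24 with propionate and 1.80 ± 0.22 in controls, Tet3 at 1.18 ± 0.19 and 1.45 ± 0.21, and Tet1 at 0.18 ± 0.07 and 0.26 ± 0.05 (SD, n = 4 each). Summed over the 3 genes the level was 2.42 ± 0.42 FPKM with propionate and 3.51 ± 0.45 FPKM in controls. Tet2 made up 43.7% ± 3.2 of that sum with propionate and 51.2% ± 2.1 in controls, and Tet3 49.1% ± 5.0 and 41.3% ± 2.3. In the propionate libraries Tet2 held 40.2% to 48.0% of the Tet sum, below the 48.5% to 53.3% of the controls, a gap narrower than the spread within either group. These shares were computed after the Tet values were seen and were not tested.

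**Figure D1:**
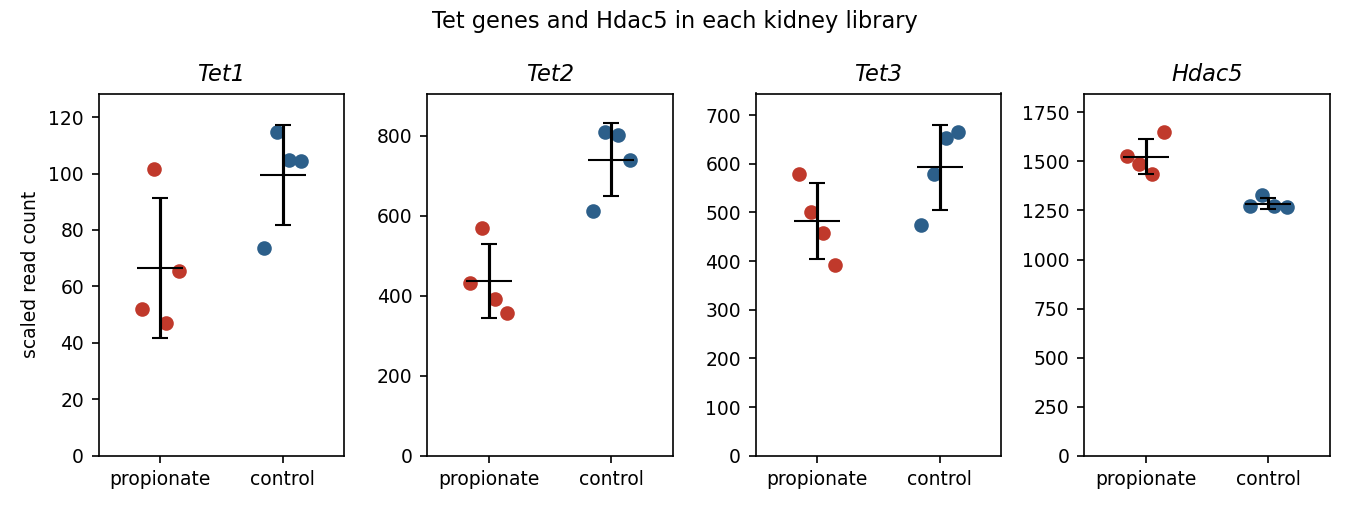
Scaled read count (vertical axis, from 0) of Tet1, Tet2, Tet3 and Hdac5 in the 4 propionate and the 4 control libraries. Points are libraries, horizontal bars the group means and error bars the SD. The groups are separate for Tet2 and for Hdac5 and overlap for Tet1 and Tet3.

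Some white blood cell markers were also lower. Of 13 macrophage and dendritic cell markers 4 were in the table, all lower with propionate, and their summed scaled counts were 238 to 477 with propionate and 370 to 807 in controls. By the authors' deposited table only Adgre4 of these passed (adjusted p = 0.0177). Mrc1, Cd68 and Itgam did not (0.0976, 0.379 and 0.432), and their groups overlapped. Of 8 neutrophil markers only Itgb2l was listed, at 10.9 to 27.5 scaled counts with propionate and 53.5 to 81.1 in controls. None of the T cell, B cell, endothelial, podocyte or fibroblast markers chosen here was in the table. Genes outside the marker lists were not searched as a set. Among them, the immunoglobulin V genes Ighv1-47 and Ighv1-42 had log2 fold changes of -3.71 and -3.16 by edgeR. The endothelial selectin Sele had -1.71. Their values per library are not given here. Among the tubule markers chosen here, 3 of 9 for the collecting duct and 2 of 9 for the loop and distal tubule were in the table, all higher. Their summed scaled counts were 6159 to 7939 with propionate and 5294 to 6467 in controls for the collecting duct, and 8371 to 9731 with propionate and 7616 to 8216 in controls for the loop and distal tubule. None of these 5 passed by the authors' deposited table. Of all genes tested, 46.7% were lower. Genes of these segments that were not on the lists went both ways. By edgeR the log2 fold change was -0.24 for Scnn1a, -0.28 for Egf, -0.42 for Casr and 0.55 for S100g. The 5 markers therefore do not show a rise of these segments as a whole. In whole kidney RNA, fewer cells of a type and less RNA per cell cannot be told apart, and the part of any of these cell types in the differences of the 18 genes was not tested.

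Hdac5, a class IIa deacetylase that shuttles between nucleus and cytoplasm and represses MEF2 targets, had 1528, 1486, 1435 and 1648 scaled counts with propionate and 1275, 1329.7, 1270.4 and 1266 in controls. Its groups did not overlap, and the controls lay close together. The means were 1525 ± 90.9 with propionate and 1285 ± 29.9 in controls (SD, n = 4 each), a log2 fold change of 0.25 ± 0.06 (SE). The edgeR adjusted p over all 16064 genes was 0.234 and that of DESeq2 0.0317. The DESeq2 call ended when any 1 of 7 libraries was left out (adjusted p 0.0641 to 0.216), and held only without propionate replicate 3 (0.0468). With a gene length trend removed, the log2 fold change of Hdac5 was 0.40 by edgeR (adjusted p 0.0112 over the listed genes) and 0.32 by DESeq2 (0.00544). With a length and GC trend removed, Hdac5 had a log2 fold change of 0.08 by edgeR and -0.11 by DESeq2 and passed neither (adjusted p 0.251 over the listed genes and 1). With the replicate number as a block, the DESeq2 adjusted p was 0.156. Sirt6, a NAD-dependent deacetylase known from DNA repair and glucose metabolism, had 157, 180.0, 196 and 207 scaled counts with propionate and 154, 149, 144 and 147 in controls. The groups did not overlap, and propionate replicate 1 lay close to control replicate 1. The log2 fold change of Sirt6 was 0.32 ± 0.12 (SE), and the authors' deposited table gives it 0.367 as adjusted p.

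Of 22 annotated lysine methyltransferase genes 3 were in the table, Setd4 and Setd5 lower and Kmt5a higher. Setd4, a SET-domain methyltransferase, had 97.2, 102, 81.1 and 79.3 scaled counts with propionate and 127, 151, 115 and 153 in controls. All propionate libraries were below all controls, by a mean of 34.2%. Its log2 fold change of -0.60 ± 0.16 (SE) was next to that of Tet2 in size, and the authors' deposited table gives it 0.0700 as adjusted p, so that it did not pass. Setd5, a SET-domain protein named in human intellectual disability, averaged 813 ± 46.9 scaled counts with propionate and 903 ± 10.3 in controls (SD, n = 4 each), with no overlap and a log2 fold change of -0.15. Kmt5a, which adds single methyl groups to a lysine of histone H4, had 2214, 1852, 2094 and 2264 scaled counts with propionate and 1971, 1942, 1688 and 1851 in controls. Propionate replicate 2 lay among the controls, and the log2 fold change was 0.18 ± 0.08 (SE). Kmt5a had the highest level per length of the 18 genes, 16.2 ± 1.27 FPKM with propionate and 14.4 ± 1.07 in controls, and Tet1 the lowest. In the order by control level Phf5a, Smarcd2 and Phf23 followed Kmt5a. Phf5a and Smarcd2, at 9.79 ± 0.77 and 9.54 ± 0.74 FPKM in controls, lay within each other's spread.

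Lysine demethylases were listed by 2 of 18 annotated genes, which differed in direction. Kdm7a, a JmjC demethylase of repressive histone marks, had 514, 534, 463 and 405 scaled counts with propionate and 540.2, 581, 629 and 622 in controls. The groups were separate, with propionate replicate 2 just below control replicate 1. Kdm4b, a JmjC demethylase of trimethylated lysine on histone H3, had 559, 524, 549.5 and 648 scaled counts with propionate and 486, 457, 513.5 and 479 in controls. All propionate libraries were higher than all controls here. The log2 fold changes were -0.31 ± 0.10 for Kdm7a and 0.24 ± 0.08 for Kdm4b (SE). By the authors' deposited table their adjusted p was 0.203 for Kdm7a and 0.304 for Kdm4b.

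Symbol families of remodellers, which use ATP to slide or evict nucleosomes, and of their subunits gave 6 genes of 43, of which 4 were lower. Among these 4, Arid3a was counted by its symbol alone. Chd7, the chromodomain helicase mutated in human CHARGE syndrome, had 217, 194, 234 and 224 scaled counts with propionate and 259.5, 262, 310.2 and 262 in controls, with no overlap. Its log2 fold change was -0.33 ± 0.10 (SE) and the authors' deposited table gives it 0.224 as adjusted p. Its relative Chd9 averaged 512 ± 65.2 with propionate and 606 ± 34.2 in controls, Baz2b, a bromodomain partner of ISWI remodellers, 496 ± 83.8 and 603 ± 30.4, and Arid3a, a DNA-binding factor first found in B cells, 248.5 ± 37.5 and 304 ± 29.9 (SD, n = 4 each). In each of these 3 the groups overlapped. Baz1b, the Williams syndrome transcription factor and a partner of the remodeller ISWI, had 1684, 1599, 1641 and 1756 scaled counts with propionate and 1651, 1259.8, 1443 and 1395 in controls. Control replicate 1 lay within the propionate range. Smarcd2, a BAF complex subunit needed for granulocyte maturation, averaged 949.8 ± 44.6 with propionate and 838 ± 67.8 in controls (SD, n = 4 each), also with overlap.

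Of 22 Phf genes 2 were listed and both were higher. Phf23, a PHD-finger reader of methylated histone H3, had 663, 669, 674 and 709.7 scaled counts with propionate and 556, 557, 617 and 640.2 in controls, without overlap. Its log2 fold change was 0.20 ± 0.07 (SE), and the authors' deposited table gives it 0.334 as adjusted p. Phf5a, a PHD-finger protein that is a subunit of the splicing factor SF3B rather than a histone enzyme, averaged 612 ± 58.2 with propionate and 518 ± 38.4 in controls (SD, n = 4 each), with overlap.

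**Figure D2:**
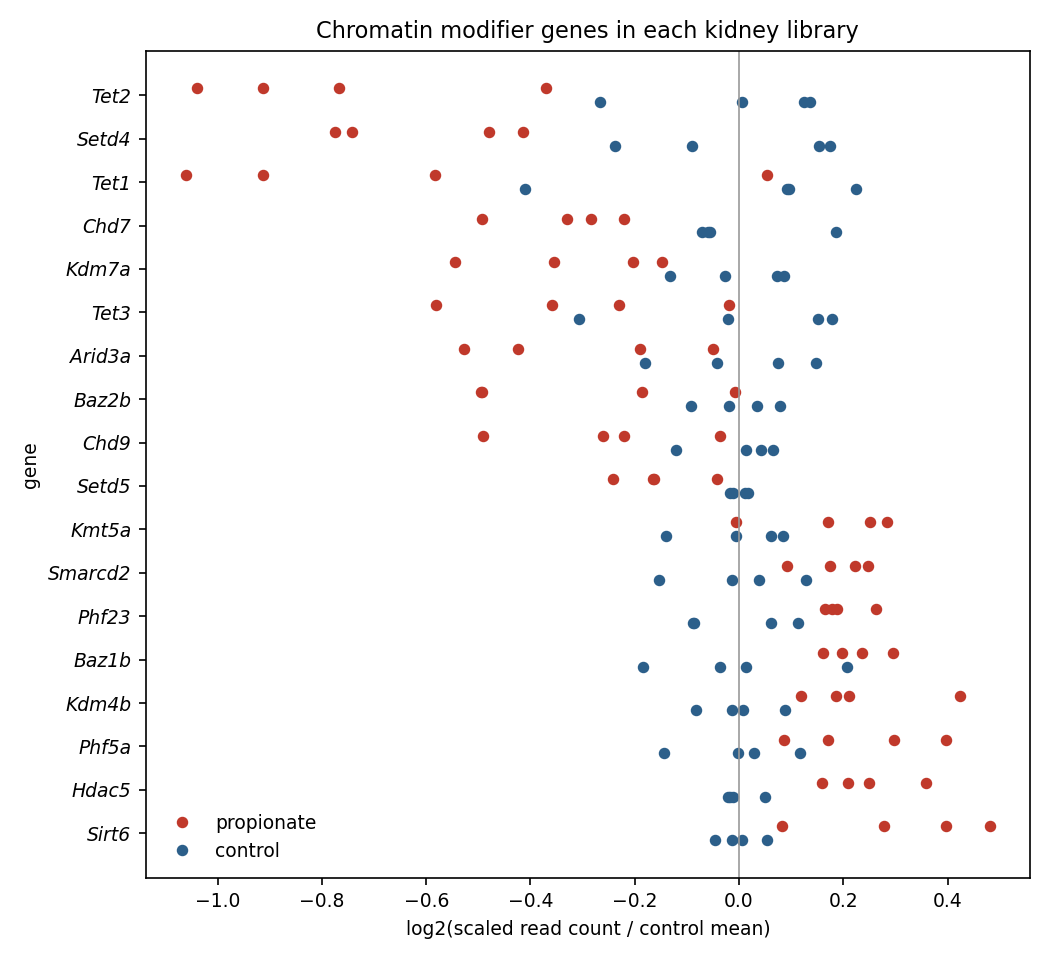
Scaled read count of each of the 18 genes in each library, as log2 of its ratio to the control mean, taken on the log scale (horizontal axis), with genes in the order of their fold change. Points are libraries, propionate above control for each gene. The groups are separate for 9 genes, 5 lower and 4 higher with propionate.

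Over the 18 genes, the groups did not overlap for 5 lower genes (Tet2, Setd4, Chd7, Kdm7a and Setd5) and 4 higher ones (Hdac5, Kdm4b, Phf23 and Sirt6). Among all 1793 genes tested by edgeR this was so for 22% in the lower and 25.4% in the higher direction, so separate groups were about as common here as in the whole table. Adjusted over the listed genes alone, edgeR passed 16 of the 18, 8 lower and 8 higher, where 90.2% of all listed genes passed, 42% lower and 48.2% higher. Since every listed gene had been selected on these libraries, nothing can be read from these counts. Without control replicate 1, 2, 3 and 4 the lower count was 5, 1, 0 and 1 and the higher count 4, 1, 0 and 0. Among all listed genes the lower count was then 327, 106, 27 and 110 and the higher count 219, 74, 11 and 45. With all 8 libraries these were 753 and 864. Without propionate replicate 1 the higher count was 5, and without propionate replicate 3 or 4 each count was 1. Among all listed genes the higher count was 781 without propionate replicate 1. There were 80 lower and 47 higher without propionate replicate 3, and 106 and 51 without propionate replicate 4. The fall was thus not particular to the 18 genes. The call of Tet2 ended without control replicate 3 (edgeR adjusted p = 0.0514), and that of Hdac5 without control replicate 3 or 4 (0.0641 and 0.0507). Adjusted over all 16064 genes, edgeR passed 0 of the 18 and 0% of all listed genes, although 17 of the 18 had an unadjusted p under 0.05. DESeq2 passed Tet2 and Hdac5, where 5.75% of all listed genes passed lower and 3.16% higher.

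The median log2 fold change of the 18 genes was -0.20, against 0.16 for all genes tested, and 55.6% of the 18 were lower against 46.7% of all. Gene length and base composition moved with these directions. Gene length is the deposited value, which for the 18 genes is shorter than the span on the chromosome. For Chd9 it is 23148 bases, while the gene runs from 91554980 to 91781144. The 10 lower genes were 5379 to 23148 bases long by this measure (median 16076) and the 8 higher genes 2166 to 13667 (median 4242). GC content of the longest transcript was 39.6% to 54.1% (median 48.0%) in the lower genes and 45.9% to 59.8% (median 57.0%) in the higher genes. The same pattern ran through the whole table. In the longest of 4 equal bins of length, from 6552 bases up, 78.3% of all listed genes were lower, with a median of -0.25, and 8 of the 10 genes described here that fall in it were lower, with a median of -0.29. In the shortest bin, up to 2264 bases, 21.4% of all were lower. Over the 18 genes, which share the same 8 libraries, Spearman's rho of fold change was -0.56 with length and 0.55 with GC content, and over all listed genes -0.37 and 0.42.

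**Figure D3:**
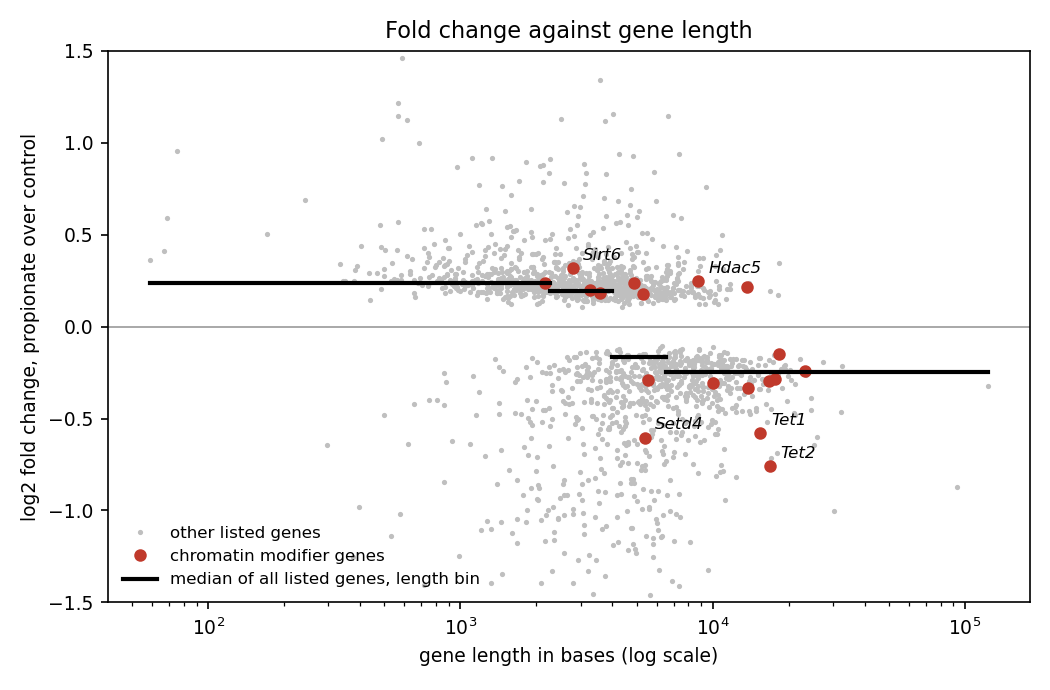
Log2 fold change, propionate over control (vertical axis, limited to 1.5 either way, which leaves out 33 other genes), against gene length in bases (log scale). Grey points are the other listed genes, red points the 18 chromatin genes, and black lines the medians of all listed genes in 4 length bins, from 0.24 in the shortest to -0.25 in the longest. The empty band around 0 is where the authors' selection removed genes. Length is the deposited value, not the span on the chromosome.

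The length and GC trends differed between the groups in every library. Slopes were taken on the log2 ratio of each gene to its own mean over the 8 libraries. Per doubling of gene length this ratio changed by -0.097 to -0.0020 in propionate libraries and by 0.042 to 0.055 in controls. Per 10 percentage points of GC it changed by 0.03 to 0.29 and by -0.17 to -0.12. By this centring the slopes of the 8 libraries balance out. Opposite signs in the groups are therefore not separate trends, and only differences between libraries can be read. Propionate replicate 4 had the steepest slope of both kinds, -0.097 and 0.294. It also stood farthest from the control mean for the 10 lower genes, at a median of -0.54 on the log2 scale, beside -0.27, -0.20 and -0.36 in propionate replicates 1, 2 and 3. For the 8 higher genes it stood at 0.33, beside 0.22, 0.17 and 0.19. Some nuclear-retained long noncoding RNAs were listed as well. Of 13 on the list, 6 were in the table and all 6 were lower, with summed counts of 9070 to 15500.4 with propionate and 17532 to 22478 in controls, and Xist fell in the authors' deposited table (adjusted p = 0.0134). All 6, at 6988 to 93092 bases, fall in the longest length bin, where 78.3% of all listed genes were lower. The part of RNA quality or library preparation in these differences was not tested.

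With the length trend of each library removed, as fitted over the listed genes, the median of the 18 genes was 0.06 and that of all listed genes 0.05. With the length and GC trend removed they were -0.00 and 0.01. The distance between the 18 genes and all listed genes, -0.35 on the log2 scale before, was then 0.01 and -0.01. Tet2 kept a log2 fold change of -0.53 and -0.49 by edgeR and passed with DESeq2 over all 16064 genes in both cases (adjusted p 0.00254 and 0.00354). By edgeR adjusted over all 16064 genes, 0 of the 18 passed in either case. Among all listed genes edgeR then passed 3 lower and 0 higher with length removed, and 16 and 13 with length and GC removed. Setd4 kept -0.55 and -0.65. Tet1 had -0.36 and -0.27, Tet3 -0.07 and -0.29, and Arid3a -0.23 and -0.38. With DESeq2 over all 16064 genes, Hdac5 and Baz1b also passed with the length trend removed (adjusted p 0.00544 and 0.0428). With length and GC removed, Setd4, Phf5a and Arid3a passed beside Tet2 (adjusted p 0.00606, 0.00844 and 0.0444). By edgeR over the listed genes Arid3a did not pass there (adjusted p 0.0536). Among all listed genes DESeq2 passed 113 lower and 76 higher of 1930 with length removed. With length and GC removed these were 156 and 168 of 1912, against 111 and 61 of 1931 before. Chd9 and Setd5 changed sign with the length trend removed, to 0.02 and 0.10. Chd9, Kdm7a, Phf23 and Smarcd2 changed sign with length and GC removed, to 0.07, 0.02, -0.00 and -0.00. The trend was fitted on genes selected for a difference.

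**Figure D4:**
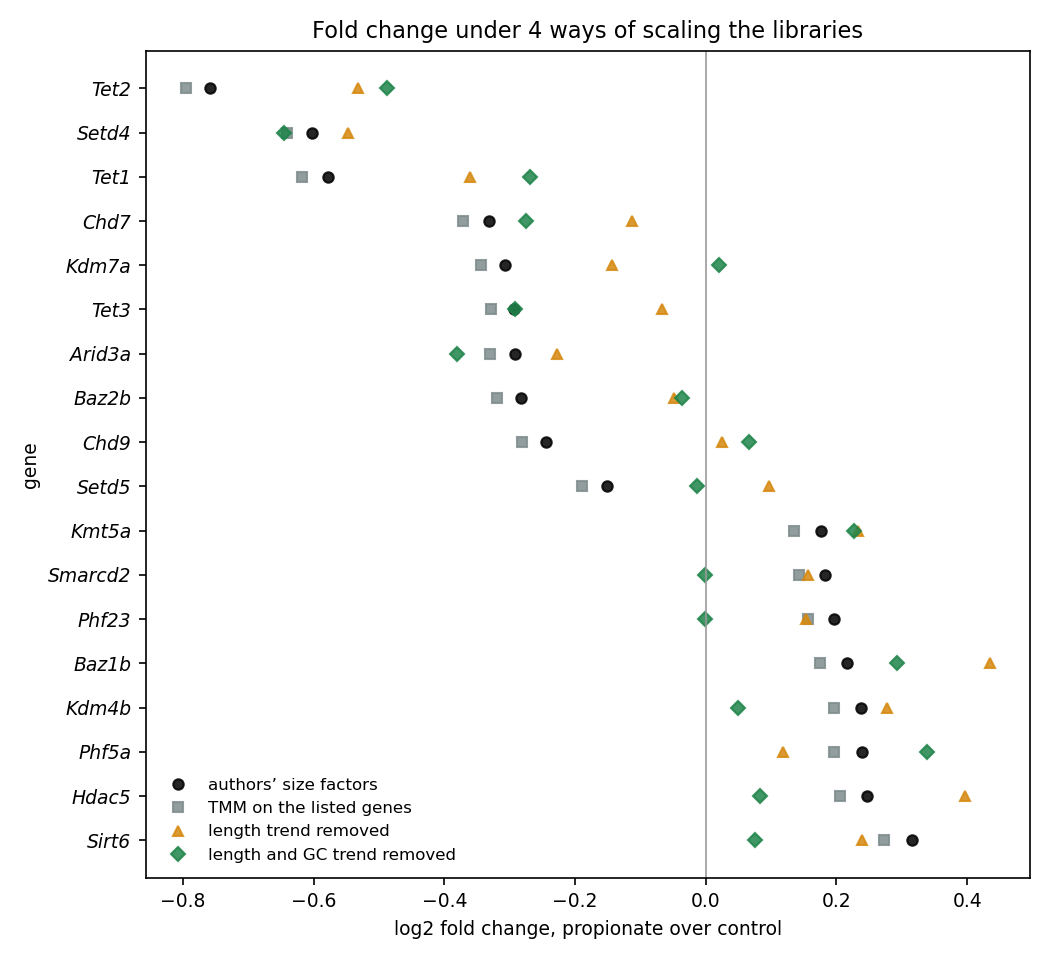
Log2 fold change, propionate over control (horizontal axis), of each of the 18 genes by edgeR under 4 ways of scaling the libraries. Circles are the authors' size factors, squares TMM, triangles the length trend removed and diamonds the length and GC trend removed. Tet2, Setd4, Tet1 and Arid3a stay below -0.2 under each of the 4, while Chd9, Setd5, Kdm7a, Phf23 and Smarcd2 reach or cross 0 under at least 1.

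Outside these families, 12 lists of chromatin and transcription genes with 298 symbols had 35 in the table, 11 lower and 24 higher, with a median of 0.17, near that of all listed genes. The lower ones had a median length of 8846 bases and the higher ones of 3676. Of the 35, 2 passed by the authors' deposited table, both of Mediator, the bridge between transcription factors and RNA polymerase. Med14, the backbone of the complex, fell to 1005 ± 33.8 scaled counts with propionate, against 1283 ± 81.4 in controls (SD, n = 4 each, adjusted p = 0.00158). Med4 rose, at 293 ± 10.5 with propionate and 221 ± 17.8 in controls (adjusted p = 0.0473). By edgeR over all 16064 genes neither passed (adjusted p = 0.178 and 0.221).

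By the authors' deposited table none of the other 33 passed, and their leading values are as follows. Among deacetylase complex genes, the log2 fold change was -0.42 ± 0.12 (SE) for Trerf1 and 0.22 ± 0.07 for Mbd3, a NuRD subunit. Among arginine and other histone methyltransferases, Prmt1, the main arginine methyltransferase, had 0.23 ± 0.07 and Dot1l, of histone H3, -0.18 ± 0.07, with 4 of 5 listed members higher. In the BAF complex, Dpf2 had 0.19 ± 0.06 and Bcl7a -0.17 ± 0.06, with 3 of 6 lower. Histone chaperone genes had 3 of 3 higher, led by Ubn1 at 0.19 ± 0.05, and core histone genes 3 of 3, led by the variant H2az2 at 0.23 ± 0.07. Polycomb genes had Cbx6 at 0.20 ± 0.08 and Ezh1, a methyltransferase, at -1.04 ± 0.38, or -0.36 without control replicate 1. In the remaining lists Cxxc1 had 0.28 ± 0.09, Supt20 -0.31 ± 0.10, Trim28 0.20 ± 0.07, Cecr2 -0.45 ± 0.19, Ncaph2 0.14 ± 0.05 and Ncapg2 -0.41 ± 0.18. Without control replicate 2, Cecr2 had -0.27. Of 14 DNA methylation readers, 0 were listed.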

How the data were processed

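The data are 8 kidney RNA-seq libraries, 4 labelled propionate and 4 labelled control, grouped by the treatment label. Per the file headers, the authors deposited raw read counts, a scaled signal (each count over the size factor of its library) and FPKM for every listed gene. The log2 fold changes and both kinds of p-value in the authors' deposited table are their own. They come from DESeq2 with mm10 named as build, per the submitters' processing notes, while no source used here names the aligner, the counter or the strandedness. Without strand, reads shared with an overlapping gene cannot be told apart, and 7 of the 18 genes share 0.255% to 2.85% of their exon bases with another annotated gene.

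Size factors and library totals were recovered from the columns. Counts were tested with the quasi-likelihood test of edgeR 4.0.16 (R 4.3.3), no covariate, its default filter and library sizes from the authors' size factors, since TMM on genes selected for a difference breaks its assumption. All 18 genes passed the filter. SE is the fold change over the root of F. Benjamini-Hochberg adjustment was made over the 1793 listed genes tested and over the 16064 behind the deposited adjusted p-values, unlisted genes taken to have larger p. Selection on these libraries also favours low dispersion. DESeq2 1.42.0 was used with the same size factors. Trends were natural splines (4 degrees of freedom) of log2 ratio, with 0.5 added to counts, on log length and on GC of the longest GENCODE M21 transcript (all 18 genes and 1913 of the table). On simulated data with 1787 genes, 68% of genes changed by 0.5 (log2) and 91% changed by 1 were recovered by the edgeR steps and 0.441% of unchanged genes were called. There 100 genes were changed by each size and the rest were unchanged, with dispersions fitted on the listed genes. In the real table every gene was preselected and 90.2% passed, so these rates do not carry over to it. The genes given with full values were those passing in the authors' deposited table, the smallest edgeR p of each role and direction and the 6 smallest among all 18, and in each other list the smallest in each direction. The members and lists were chosen with earlier results of these data known.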

Additional observations from a re-analysis of the deposited data

Results flagged for a closer look

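In groups of 4 libraries, 2 of 36 sets of values of the 18 genes had a library far from the others, and chance gives about 1 in 20. Hdac5 was at 1329.7 scaled counts in control replicate 2, above the other controls at 1266 to 1275. Chd7 was at 310.2 scaled counts in control replicate 3, above the other controls at 259.5 to 262. In both genes every propionate library stayed on the same side of all controls.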

How the results depend on the processing

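The 18 genes kept their direction with TMM, total-count scaling, no filter, DESeq2, the replicate block and each library left out. The passing lower count of 8 became 2 with the length trend removed, with or without the replicate block, and 2 with length and GC removed. The higher count of 8 became 3 with TMM, 4 with the length trend removed, with or without the block, and 2 with length and GC removed. Among all listed genes, 753 lower and 864 higher became 327 and 360 with length removed, and 383 and 364 with the block as well. With length and GC removed they became 207 and 194. Leaving out 1 library gave 0 to 8 lower and 0 to 7 higher of the 18 genes. Among all listed genes it gave 27 to 608 lower and 11 to 781 higher. The count over all 16064 genes, 0 by edgeR, was 2 by DESeq2 and 0 to 1 with a library left out. The DESeq2 count of 2, fits chosen after seeing the data, was 1 to 2 with a library left out, 1 with the replicate block, 3 with the length trend removed and 4 with length and GC removed. Among all listed genes, 111 lower and 61 higher became 113 and 76 with length removed, and 156 and 168 with length and GC removed. The median of -0.20 became 0.061 with the length trend removed (0.059 with the block), -0.0012 with length and GC removed, and -0.22 to -0.15 with a library left out. Single genes changed sign as follows. Chd9 reached 0.025 with length removed (0.023 with the block) and 0.067 with length and GC, Setd5 0.097 with length (0.095 with the block), Kdm7a 0.021, Phf23 -0.00073 and Smarcd2 -0.0016 with length and GC. The cause was not tested. The share of higher genes among all passing was 53.4%, and 38.2% with TMM (465 higher, 751 lower). After centring within each group, same-numbered libraries correlated at -0.11 to 0.26, with 3 of 4 pairs over 0.1. Differently numbered libraries correlated at -0.28 to 0.39. With 4 libraries in each group, this cannot tell whether the numbers pair them. The replicate block alone gave 6 higher and 8 lower. Tet1 had the fewest reads of the 18, 47.0 to 115 scaled counts.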

Other observations

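Ezh1, the polycomb methyltransferase, had a log2 fold change of -1.04, with control replicate 1 far above the other controls. It had 239, 219, 182 and 180.4 scaled counts in the propionate libraries, against 885, 266, 291 and 234 in the controls. Without control replicate 1, a fit chosen after seeing the data, its log2 fold change was -0.36. Propionate replicate 1 lay above control replicate 4.

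Ino80dos, a long noncoding RNA whose symbol starts like that of a remodeller subunit, is not among the 18 genes because it is not protein-coding. It had 19.6, 23.5, 15.7 and 18.8 scaled counts with propionate and 21.1, 39.1, 32.9 and 42.5 in controls, with propionate replicate 2 above control replicate 1. The authors' deposited table gives it 0.354 as adjusted p.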
